A study of Mus musculus with 6 samples.

Results

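The comparison described here sets basal keratinocytes of castrated XY mice against those of intact XY mice. It rests on 4 of the 6 libraries of a study of sex differences in epidermal stem cells: 2 from castrated males and 2 from intact males of CD1, an outbred mouse stock. The other 2 libraries came from females. Their values are given as a reference, and they entered the fit only through the spread shared by all groups. Each library held polyA RNA of 100000 cells sorted from ear epidermis, pooled from 2 littermates. The sort kept living cells with integrin alpha 6 on their surface and without CD34. The titles name the cells as basal cells of the epidermis between the follicles, and the CD34 gate leaves out the hair follicle bulge. Transcripts of upper follicle and sebaceous genes were present as well, as given below. No transgene or drug was named for any group, and the age of the mice and the time since castration were not given in the sources used here. All genes with at least 10 reads in at least 2 of the 4 libraries were compared, which kept 15137 of the 49671 genes in the table. A pool stands for 1 litter, so the litter and the castration of a library cannot be told apart, and p-values measure the spread between pools.

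Castration removes the testes, the main source of testosterone. In target cells testosterone is converted by 5-alpha-reductase enzymes to dihydrotestosterone, and both hormones act by changing the transcription of androgen-responsive genes. In skin, androgens are best known for their action on sebaceous glands and hair follicles. Basal keratinocytes, marked by keratins 5 and 14 and attached to the basement membrane by integrin alpha 6, are the dividing cells of the epidermis. Their daughters leave the layer, switch to keratins 1 and 10 as spinous cells, and later make the proteins of the granular and cornified layers.

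The 4 libraries held 8466450 to 9265207 reads, so that 1 read was worth 0.107 to 0.117 CPM (reads per 1000000 reads of the library, after scaling). Read counting alone did not account for the gap between replicates: chi-square divided by its degrees of freedom was 4.41 in castrated and 11.7 in intact males. Markers of the sorted cells were high throughout. Krt5 stood at 10913 and 10956 CPM in castrated against 10042 and 11416 CPM in intact libraries, Krt14 at 12491 and 14131 against 13168 and 13357 CPM, and Itga6 at 362 and 362 against 374 and 367 CPM. Cd34 stood at 1.5 to 3.05 CPM. The Y-linked genes Ddx3y, Eif2s3y, Kdm5d and Uty had 341 to 1937 reads in each of the 4 libraries, and Xist, which silences an X chromosome in females, had 3 to 8. Of 57 tested members of 12 lists of markers of other cell types, with a gene in 2 lists counted in each, none was called. Over all tested genes 0.0529% were called, so the lack of a call among 57 says little about the purity of the sort. The levels of some of these lists are given at the end.

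Differences between the group means were about as large as those between the castrated pools and smaller than those between the intact pools. The median absolute log2 difference was 0.14 between the group means, 0.16 between the castrated libraries and 0.22 between the intact libraries. A group mean averages 2 libraries and so carries less noise than a single library. The standard deviation of the log2 difference over all tested genes was 0.34 between the group means, 0.33 between the 2 castrated libraries and 0.50 between the 2 intact libraries. A difference of at least 2-fold was found for 304 genes between the groups, for 231 between the castrated libraries and for 810 between the intact libraries. Single libraries of different groups were no farther apart than the intact pair: the 4 cross-group pairs had standard deviations of 0.415 to 0.491. Intact male 1 was the farther intact library from both castrated libraries (0.481 and 0.491, against 0.415 and 0.433 for intact male 2). The group difference exceeded both replicate differences in 3495 genes (23.1%). With 2 libraries per group some genes do so without any group effect, and that share was not determined. Of the 3495 genes 210 differed by at least 2-fold, 113 with higher and 97 with lower values after castration. Across 15092 genes the fold change had a Spearman rho of -0.021 with exon length, a description in which the genes share the libraries.

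**Figure D1:**
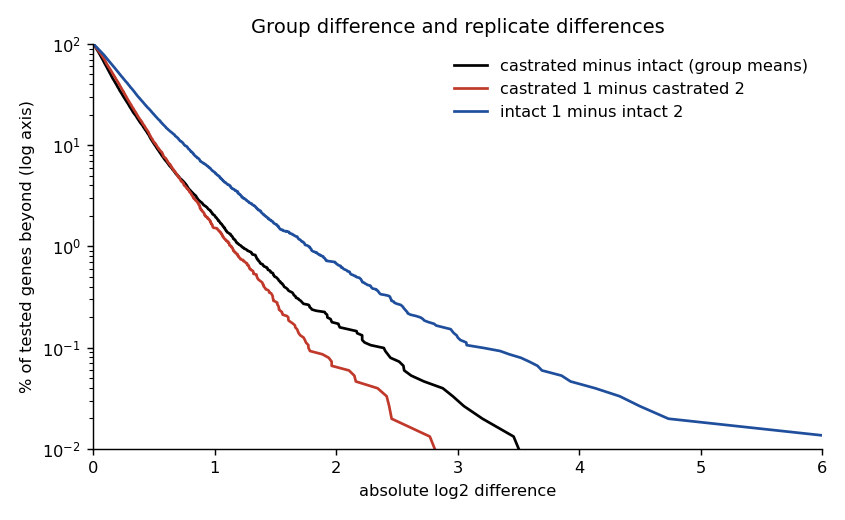
Share of the 15137 tested genes (vertical axis, percent, log scale) whose absolute log2 difference (horizontal axis) lies beyond a given value, for the group means and for the 2 replicate pairs. The intact pair lies above the other curves over most of the axis, and the group difference lies close to the castrated pair up to about 1 and above it beyond.

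With limma, 8 genes passed an adjusted p (Benjamini-Hochberg) of 0.05, which is 0.0529% of those tested. Castrated males had 4 of them higher (0.0264%) and 4 lower (0.0264%). At an unadjusted p of 0.05, 491 genes were higher (3.24%) and 408 lower (2.7%). Both castrated libraries lay above both intact libraries in 2680 genes (17.7%) and below both in 2665 (17.6%). Of the 8 called genes 3 code for proteins, namely Ptgs2, Cox7b and Rpsa, and 5 are annotated as pseudogenes, a class that makes up 4.93% of the tested genes. Without castrated male 1 or 2 the calls other than that of Rps3a3 were lost or could not be tested. A fit without 1 of the 4 libraries leaves a single pool in 1 group. The spread of that group then does not enter the test, so only fold changes are given for such fits.

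**Figure D2:**
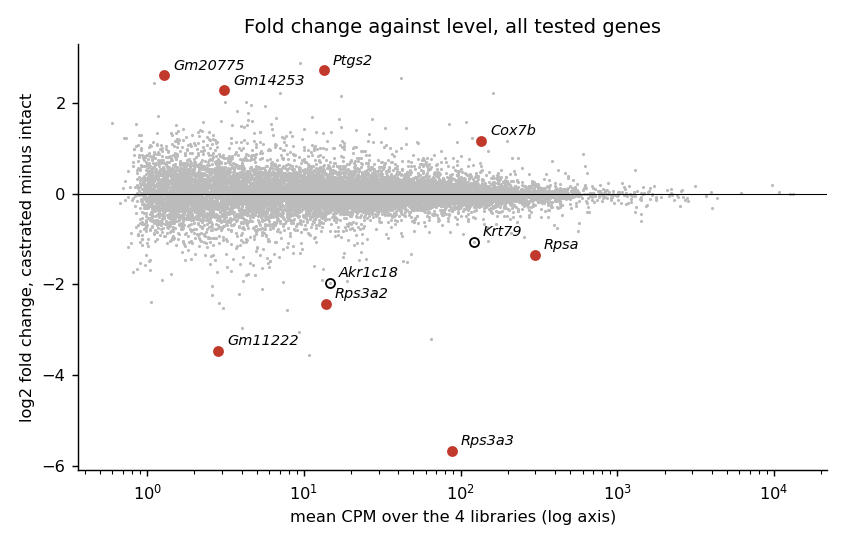
Log2 fold change (castrated minus intact, on log2(CPM + 0.5)) against the mean CPM of the 4 libraries on a log axis, 1 dot per tested gene. Filled red circles are the 8 called genes, and open circles are Akr1c18 and Krt79, which were not called. Rps3a3 lies farthest from 0, at -5.67.

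Ptgs2 was the called protein-coding gene with the largest change. It encodes cyclooxygenase 2, the inducible enzyme that makes the prostaglandin precursor from arachidonic acid. It stood at 20.9 and 26.4 CPM in castrated males (183 and 231 reads) and at 3.10 and 3.16 CPM in intact males (29 and 27 reads). All castrated values lay far above all intact values, while the replicates of each group lay close together. The mean ratio was 7.54 and the log2 fold change 2.72 ± 0.21 (SE, 2 libraries per group, limma adjusted p = 0.0044). The females stood at 14.4 and 13.7 CPM, between the groups. The gene lies on chromosome 1 at 150100031 to 150108227 on the plus strand of GRCm38. Without castrated male 1 or 2 the log2 fold change was 2.89 and 2.56, and without intact male 1 or 2 it was 2.71 and 2.74.

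The RefSeq promoter of Ptgs2, chr1:150099781-150100080 in GRCm38.p6 on the plus strand, is shown because the gene was the clearest change of a coding transcript and because sites for steroid receptors and clock factors were searched there. It runs from 250 bases before the start to 50 bases after it, and the capitals mark the E-box CACGTG, 16 bases after the start.
Ptgs2 promoter: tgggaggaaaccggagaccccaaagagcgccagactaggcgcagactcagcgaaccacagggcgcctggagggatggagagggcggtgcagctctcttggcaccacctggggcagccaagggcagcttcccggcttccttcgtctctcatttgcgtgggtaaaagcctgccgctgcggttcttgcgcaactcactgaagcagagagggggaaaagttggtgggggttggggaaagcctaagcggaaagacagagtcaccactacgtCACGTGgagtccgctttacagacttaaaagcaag
The E-box, read the same on both strands, stood in 7.15% of all 32851 RefSeq promoters of this length and in 11.6% of the 9931 tested genes that matched a promoter by symbol. The site shared by several steroid receptors, AGAACA, any 3 bases, TGTTCT, was found in 3 of all promoters, and the estrogen receptor site GGTCA, any 3 bases, TGACC in 23. Neither was in the promoters of Ptgs2, Cox7b or Rpsa, and of these 3 only that of Ptgs2 held the E-box. A match is a description of the letters, and a miss concerns only these windows.

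Other enzymes of the prostaglandin pathway, grouped here after their values were seen, were not called. Pla2g4a, a cytosolic phospholipase that frees arachidonic acid and lies 138.7 kb from Ptgs2, stood at 150 and 166 CPM in castrated and 102 and 119 CPM in intact libraries (log2 fold change 0.51 ± 0.14, limma adjusted p = 0.60). Ptgs1, the constitutive cyclooxygenase, stood at 67.5 and 106 against 37.0 and 59.3 CPM (0.85 ± 0.31, limma adjusted p = 0.75). Hpgd, which breaks prostaglandins down, stood at 36.6 and 38.9 against 12.1 and 23.1 CPM (1.15 ± 0.28, limma adjusted p = 0.47). In each of these 3 genes the castrated values lay above the intact ones without overlap, as in 17.7% of all tested genes.

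Cox7b was the other protein-coding gene called higher. It encodes a small subunit of cytochrome c oxidase, the last complex of the respiratory chain, and lies on the X chromosome at 106015700 to 106022450. The castrated libraries stood at 189 and 186 CPM and the intact libraries at 82.1 and 84.1 CPM. Replicates differed by a few percent and the groups by 2.26-fold, a log2 fold change of 1.17 ± 0.11 (limma adjusted p = 0.0099). Females stood at 214 and 218 CPM, beside the castrated males. Over 34 tested oxidative phosphorylation genes, a list without Cox7b, the median log2 fold change was -0.0039, and none was called. Of these, 3 had an unadjusted limma p below 0.05 with higher and 0 with lower values, against 3.24% and 2.7% of all tested genes. Leaving out castrated male 1 or 2 gave a log2 fold change of Cox7b of 1.16 and 1.18.

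Magt1, which encodes a magnesium transporter of the endoplasmic reticulum and lies 3.79 kb from Cox7b on the opposite strand, was not called. It stood at 93.4 and 109 CPM in castrated and 54.6 and 62.9 CPM in intact males (0.78 ± 0.14, limma adjusted p = 0.20). Females stood at 92.9 and 93.7 CPM, within or next to the castrated range, as they did for Cox7b. Of the 5 tested genes within 500 kb of Cox7b, Magt1 alone had an unadjusted p below 0.05.

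Rpsa was the protein-coding gene called lower. Its product is a protein of the small ribosomal subunit, also known as a laminin receptor. It stood at 168 and 167 CPM in castrated and at 439 and 412 CPM in intact males, a 2.54-fold difference without overlap (log2 fold change -1.34 ± 0.12, limma adjusted p = 0.0099). The female values of 187 and 220 CPM lay near those of castrated males. The gene lies on chromosome 9 at 120127689 to 120132369. The processed pseudogene Rpsa-ps10 matches 885 bases of its transcript at 99.3% identity and had values in the opposite order, 68.5 and 71.2 CPM in castrated against 19.5 and 6.68 CPM in intact males (2.55 ± 0.38, limma adjusted p = 0.089). Summed over the 10 Rpsa copies of the table, castrated libraries stood at 247 and 246 CPM and intact libraries at 472 and 432 CPM, so the sum was lower after castration too. How the counting shared reads between near-identical copies was not given, and single copies are therefore uncertain. Without castrated male 1 or 2 the log2 fold change of Rpsa was -1.35 and -1.33.

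Slc25a38, a mitochondrial glycine carrier gene that lies 3.19 kb from Rpsa on the same strand, was not called. It stood at 22.8 and 23.5 CPM in castrated and at 43.7 and 43.2 CPM in intact males (-0.89 ± 0.16, limma adjusted p = 0.22). Among the 43 ribosomal protein genes of the cytosol Rpsa was the only call, and their median log2 fold change was -0.00082.

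Rps3a3, a processed pseudogene of a small-subunit ribosomal protein gene on chromosome 13 (108670603 to 108671397), had the largest fold change on the log2(CPM + 0.5) scale. It stood at 2.51 and 3.31 CPM in castrated males (22 and 29 reads) against 180 and 164 CPM in intact males (1683 and 1401 reads). The log2 fold change was -5.67 ± 0.24 (limma adjusted p = 4.29e-05), and it ran from -5.84 to -5.5 without each of the 4 libraries in turn. Rps3a2, another processed copy, on chromosome 14, stood at 3.99 and 4.00 CPM against 23.3 and 23.9 CPM (-2.42 ± 0.24, limma adjusted p = 0.011). Without castrated male 1 or 2 its log2 fold change was -2.42 each time. Females had intact-like values of both copies, 121 and 205 CPM of Rps3a3 and 18.7 and 29.3 CPM of Rps3a2.

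The parent gene Rps3a1 had values in the opposite order, 701 and 781 CPM in castrated against 569 and 515 CPM in intact males (0.45 ± 0.12, limma adjusted p = 0.59). The sum of the 3 copies overlapped between the groups, with 707 and 788 CPM in castrated and 772 and 703 CPM in intact libraries. The transcripts of Rps3a3 and Rps3a1 align over 795 bases with 9 mismatches (98.9% identity). The 60-base stretch with the most mismatches, which is 2, is shown for both because reads can be told apart only at such bases. It covers bases 201 to 260 of the Rps3a3 transcript and 334 to 393 of the Rps3a1 transcript in GENCODE M21, counted from the 5′ end, and the capitals mark the mismatches.
Rps3a3: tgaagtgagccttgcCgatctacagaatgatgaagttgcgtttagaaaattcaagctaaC
Rps3a1: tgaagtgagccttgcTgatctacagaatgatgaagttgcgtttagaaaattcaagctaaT

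The other called genes were pseudogenes of low level. Gm20775 is annotated on the Y chromosome (10641257 to 10643107) and matches the transcript of Rmi1 over 1851 bases at 99.7% identity. It had 22 and 23 reads in castrated and 0 reads in intact males (2.51 and 2.63 CPM against 0), at least 7.64-fold higher against a floor of 3 reads per library (limma adjusted p = 0.048). The female libraries listed it at 2.76 and 2.56 CPM although they had 0 to 2 reads of the 4 Y-linked genes above. Gm14253, a processed copy of Pdcd10 (99.4% identity over 639 bases) on chromosome 2, stood at 5.24 and 5.71 against 0.641 and 0.820 CPM (2.28 ± 0.29, limma adjusted p = 0.048). The calls of Gm20775 and Gm14253 were both lost with the 4 male libraries alone, without TMM factors, with the filter over all 6 libraries or at 50 reads, and with the replicate block. That of Gm20775 was lost at a pseudocount of 2 and that of Gm14253 with voom weights too. Gm11222, a copy of Rpl7l1 at 95.8% identity on chromosome 4, had 1 read in the castrated libraries together and 100 in the intact ones. Their ratio by depth was 98.0 (95% exact counting interval 17.2 to 3910, limma adjusted p = 0.013). Of the parent genes, Rmi1 stood at 19.4 and 18.2 CPM in castrated and 17.9 and 18.2 CPM in intact males. Pdcd10 ran opposite to its copy, at 78.85 and 77.7 against 96.0 and 86.9 CPM, and Rpl7l1 overlapped, at 173 and 201 against 161 and 188 CPM.

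**Figure D3:**
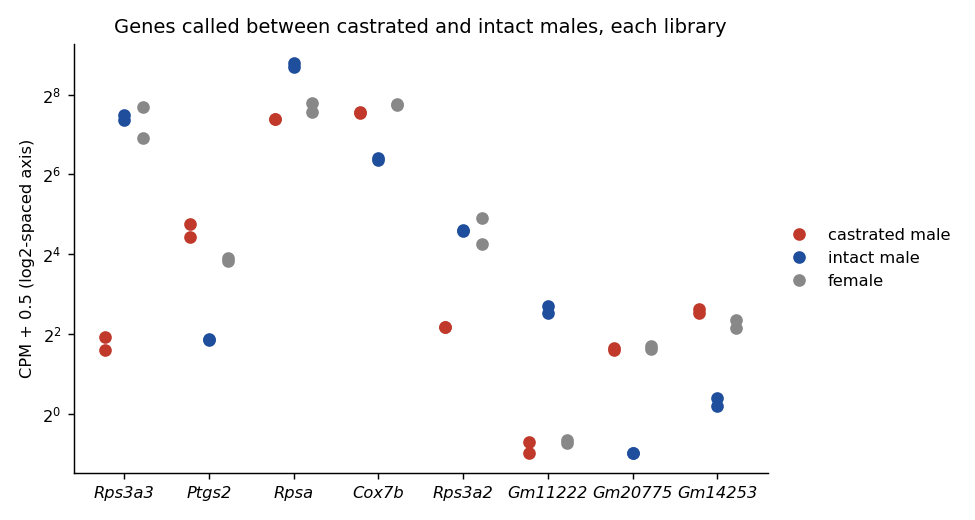
The 8 called genes in each library, as CPM + 0.5 on a log2-spaced axis; each dot is 1 library, and where only 1 dot is seen both replicates coincide. Castrated and intact dots are apart for every gene, and the grey female dots lie near the castrated ones for Cox7b, Gm11222, Gm20775 and Gm14253 and near the intact ones for Rps3a3 and Rps3a2.

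Akr1c18 came closest to being called among coding genes. It encodes a hydroxysteroid dehydrogenase that inactivates progesterone. It stood at 6.27 and 4.91 CPM in castrated and at 28.9 and 18.4 CPM in intact males, a 4.24-fold difference (log2 fold change -1.96 ± 0.25, limma adjusted p = 0.054). The log2 fold change was -2.12 and -1.8 without castrated male 1 and 2, and -1.64 and -2.28 without intact male 1 and 2. The females stood above both groups, at 83.6 and 114 CPM. Akr1e1, a family member 440.1 kb away that was looked up after its values were seen, stood at 37.9 and 51.9 CPM in castrated and at 7.37 and 34.1 CPM in intact libraries (1.44 ± 0.55, limma adjusted p = 0.77). Its log2 fold change was 0.38 without intact male 1 and 2.51 without intact male 2.

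Genes with higher values after castration that were not called included neighbours on chromosome 17. Ubr2, a ubiquitin ligase that recognises protein N-termini, stood at 65.3 and 56.4 CPM against 26.6 and 29.6 CPM (1.10 ± 0.15, limma adjusted p = 0.065). Trerf1, a zinc finger regulator of transcription 130.3 kb away, stood at 75.9 and 68.0 against 26.3 and 39.4 CPM, and Mrps10, a mitochondrial ribosomal protein gene 358.3 kb away, at 82.8 and 80.4 against 42.5 and 53.4 CPM. Fggy, which encodes a sugar kinase, stood at 7.41 and 16.7 against 1.92 and 2.11 CPM, and Cpa4, a carboxypeptidase gene, at 9.80 and 9.02 against 3.20 and 3.16 CPM. The adjusted p-values of Trerf1, Mrps10, Fggy and Cpa4 lay between 0.16 and 0.23. Females had Fggy at 0.817 and 0.895 CPM, below both male groups, and Ubr2 at 54.7 and 48.5 CPM.

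Genes with lower values after castration that were not called included a group on chromosome 1. Glul, which encodes glutamine synthetase, stood at 169 and 178 CPM against 363 and 307 CPM (-0.94 ± 0.18, limma adjusted p = 0.23). Teddm2 and Mir8114 overlap Glul and had fold changes of -0.98 and -1.13, and A830008E24Rik, a noncoding RNA 127.9 kb away, one of -1.90. Teddm2 (153849542 to 153900228, minus strand) shares only an end with Glul (from 153899944, plus strand), and Mir8114 lies on the strand of Glul. How reads in the shared bases were assigned is not known here, and the strand setting of the counting was not given. On chromosome 3 the subunit genes of soluble guanylate cyclase, the receptor of nitric oxide, stood together: Gucy1b3 at 1.71 and 1.48 against 15.7 and 18.0 CPM, and Gucy1a3, 17.7 kb away, at 0.684 and 0.457 against 5.34 and 4.92 CPM (limma adjusted p = 0.16 and 0.089). Gucy1b3 was called with the 4 male libraries alone, and both at a pseudocount of 2. Cd200, a ligand that restrains myeloid cells, stood at 4.90 and 5.59 against 14.3 and 13.1 CPM, and Stra6, a receptor for retinol uptake, at 7.06 and 6.96 against 43.8 and 17.9 CPM.

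Genes of small p lay near each other more often than genes at large. Of the 60 genes with the smallest p, 16 (26.7%) had another of the 60 within 500 kb, while 3.87% of all 15092 tested genes with coordinates lay that near to one of them. The pairs shared their direction in every case. They fell in 6 places: Glul and its 3 neighbours, Ubr2 with Trerf1 and Mrps10, Gucy1b3 with Gucy1a3, Rpsa with Slc25a38, Cox7b with Magt1, and the cornified-layer genes Lce1c, Kprp and Crct1 on chromosome 3. This is a description, with pairs formed after the ranking.

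Over all 46 gene lists Rpsa was the only member called, so the lists below are described by counts and medians beside those of all genes. Steroid receptors and converting enzymes showed no call between castrated and intact cells. Nr3c1, the glucocorticoid receptor gene, stood at 139 and 130 against 144 and 154 CPM, and Srd5a1, a 5-alpha-reductase gene, at 32.0 and 40.3 against 30.8 and 36.4 CPM. Esr1, which encodes estrogen receptor alpha, was spread within intact males, at 3.95 and 34.0 CPM, around 7.86 and 6.05 CPM in castrated males. Its log2 fold change was therefore -2.22 without intact male 1 and 0.73 without intact male 2. Pgr, the progesterone receptor gene, had 0 reads in all 4 libraries, which allows up to 0.32 to 0.352 CPM per library. Of the 13 tested genes of this list 1 lay above and 4 below the intact range, against 17.7% and 17.6% of all tested genes. Besides Akr1c18, Sult2b1, a sulfotransferase for cholesterol, stood at 13.8 and 15.9 against 9.40 and 7.85 CPM, and Nr3c2, the mineralocorticoid receptor gene, at 3.53 and 2.63 against 8.22 and 4.80 CPM.

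Androgen-responsive genes, a list of 48 of which 40 were tested, had no call, and 25 had negative fold changes. In 17 the castrated libraries lay below both intact libraries and in 3 above, against 17.6% and 17.7% of all tested genes, and the median log2 fold change was -0.086 against 0.0041 over all genes. The medians of the replicate differences were 0.017 in castrated and 0.12 in intact males. Fkbp5, a cochaperone of steroid receptors induced by androgens and glucocorticoids, stood at 19.1 and 13.8 CPM in castrated and at 33.1 and 22.8 CPM in intact males (-0.74 ± 0.26, limma adjusted p = 0.75). Ptk2b, a focal adhesion kinase gene, stood at 36.5 and 30.6 against 44.4 and 49.7 CPM, and Stk39, a stress-related kinase gene, at 3.65 and 4.11 against 2.03 and 1.76 CPM. The list holds Hpgd too, with values in the opposite direction to Fkbp5. Several of its genes, Fkbp5 among them, are also glucocorticoid-responsive.

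Glucocorticoid-responsive genes had the lowest median of the lists with at least 10 tested genes, -0.40. Of 22 listed genes 17 were tested, none was called and 15 had negative fold changes. Below both intact libraries lay 11 and above both 1, against 17.6% and 17.7% of all tested genes. The intact libraries differed from each other by a median of 0.44, as much as the groups, with intact male 1 the higher. The median stood at -0.22 without intact male 1 and at -0.575 without intact male 2. Tgm2, a transglutaminase, stood at 2.96 and 2.28 CPM against 7.16 and 4.57 CPM. Dusp1, a phosphatase of MAP kinases that stress signals induce too, went the other way, at 24.0 and 28.8 against 18.9 and 10.1 CPM. Of 22 tested estrogen-responsive genes none was called (median 0.044). Above both intact libraries lay 5 and below both 2, against 17.7% and 17.6% of all tested genes. The list holds Fos, described below, and Sgk3, a kinase gene that stood at 127 and 125 against 99.4 and 102 CPM. Cxcl12, a chemokine gene, stood at 2.62 and 2.51 against 6.30 and 4.34 CPM.

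Genes of the granular and cornified layers had the highest median, 0.88 on the log2 scale. Of 31 tested members 30 had positive fold changes, 18 lay above both intact libraries and 0 below, 15 had an unadjusted p below 0.05 with higher values, and none was called. Over all tested genes 17.7% lay above and 3.24% had such a p. Kprp, a proline-rich protein of keratinocytes, stood at 33.5 and 37.8 CPM in castrated and at 18.3 and 13.1 CPM in intact males (1.17 ± 0.22, limma adjusted p = 0.24). Lce1c and Lce1a2, late cornified envelope genes, stood at 24.3 and 24.3 against 9.29 and 13.9 CPM and at 14.2 and 20.1 against 6.94 and 9.49 CPM. Flg2, a filaggrin relative, stood at 18.6 and 20.3 against 9.61 and 7.38 CPM. Crct1, a gene of the same chromosome 3 cluster that is not in the list, stood at 17 and 26.5 against 7.26 and 8.67 CPM. The median was 1.20 without intact male 1 and 0.42 without intact male 2, and the intact libraries differed by a median of 0.82 from each other.

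Spinous genes had a smaller shift, with a median of 0.17 over 23 tested members and 0 called. Krt1 stood at 77.6 and 51.0 CPM against 28.9 and 40.9 CPM (0.86 ± 0.24, limma adjusted p = 0.60) and Krt10 at 233 and 207 against 189 and 153 CPM (0.37 ± 0.14, limma adjusted p = 0.76). Krtdap, a secreted differentiation protein, stood at 706 and 803 against 546 and 439 CPM. The basal list was centred near 0 (median -0.024 over 26 genes, none called). Trp63, the transcription factor of stratified epithelia, stood at 1339 and 1440 CPM against 1746 and 1591 CPM (-0.26 ± 0.14, limma adjusted p = 0.90). Krt15 stood at 13339 and 11616 against 10595 and 14744 CPM, with the castrated values inside the intact range.

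Genes of G2 and mitosis had the second highest median, 0.52. Of 34 tested members 33 had positive fold changes, 28 lay above both intact libraries and 0 below, and 20 had an unadjusted p below 0.05, against 17.7%, 17.6% and 3.24% over all tested genes, but none was called. Anln, a scaffold of the cleavage furrow, stood at 105 and 153 CPM in castrated and 67.7 and 75.5 CPM in intact males (0.82 ± 0.19, limma adjusted p = 0.40). Kif2c, a microtubule-depolymerising kinesin, stood at 27.8 and 39.7 against 20.3 and 16.4 CPM. Ccnb2, a mitotic cyclin, stood at 57.8 and 88.5 against 46.7 and 36.8 CPM, and Plk1, a mitotic kinase, at 24.5 and 40.6 against 16.4 and 15.9 CPM. Mki67, the proliferation marker, stood at 77.8 and 101 against 73.3 and 49.7 CPM (0.55 ± 0.20, limma adjusted p = 0.77).

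The summed level of the mitosis list was 1547 and 2087 CPM in castrated and 1364 and 1117 CPM in intact males. Castrated male 2 was the highest and castrated male 1 closer to intact male 1 than to its own replicate. The castrated libraries differed by a median of -0.40 (library 1 minus library 2) and the intact ones by 0.36, so that replicate gaps came near the group gap. The median was 0.325 without castrated male 2, 0.72 without castrated male 1, 0.68 without intact male 1 and 0.35 without intact male 2. Genes of S phase and DNA replication had a median of 0.17 over 39 tested members, with 35 positive fold changes. Above both intact libraries lay 22 and below both 1, against 17.7% and 17.6% of all tested genes. The intact libraries differed by a median of -0.30 in this list, and its median was 0.06 without intact male 1 and 0.35 without intact male 2. E2f1, a driver of S-phase genes, stood at 6.04 and 6.05 against 1.82 and 3.40 CPM. In bulk RNA a larger share of dividing cells and more of these transcripts per cell cannot be told apart.

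**Figure D4:**
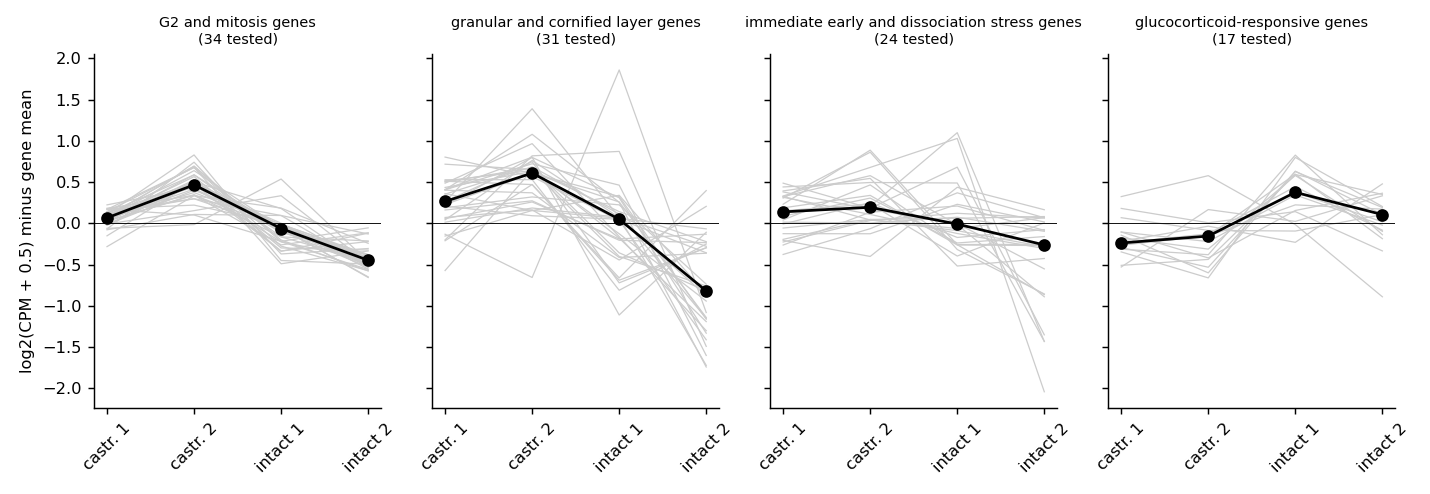
Deviation of each tested member (grey line) from its own mean over the 4 libraries, in log2(CPM + 0.5), for 4 gene lists; black circles are the medians, and lines only join the values of 1 gene. The mitosis median is highest in castrated male 2 (0.47) and lowest in intact male 2 (-0.45), while castrated male 1 (0.068) and intact male 1 (-0.062) lie close together.

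Immediate early genes, which growth factors and tissue dissociation induce within minutes, had a median of 0.39 over 24 tested members, with 12 above and 5 below both intact libraries (17.7% and 17.6% over all tested genes) and 0 called. Fos stood at 222 and 326 CPM in castrated and 144 and 98.9 CPM in intact males (1.17 ± 0.21, limma adjusted p = 0.22). Egr1 stood at 56.6 and 89.5 against 40.2 and 26.2 CPM, Ier2 at 202 and 224 against 147 and 147 CPM, and Socs3, a feedback inhibitor of cytokine receptors, at 29.7 and 33.1 against 15.6 and 16.6 CPM. Cyr61, a matricellular protein gene and YAP target, stood at 169 and 227 against 92.8 and 112 CPM. The females had Fos at 216 and 226 CPM, close to castrated male 1. The median was 0.49 without intact male 1 and 0.17 without intact male 2. Ptgs2, an early response gene that is not in this list, was level in the intact libraries (3.10 and 3.16 CPM). The list differed there by a median of 0.20, though its members Ier2 and Socs3 were nearly level too. Between the castrated libraries Ptgs2 was higher in castrated male 2 than in castrated male 1 (26.4 against 20.9 CPM), and the list differed by a median of -0.15 (library 1 minus library 2). Members of the list went both ways there: Fos and Egr1 were higher in castrated male 2, Jun and Jund in castrated male 1. Whether it moved with the list was not tested.

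Hair follicle and sebaceous gland genes had negative medians; 17.6% of all tested genes lay below both intact libraries and 17.7% above. Of 22 tested hair follicle genes 16 had negative fold changes, with 9 below both intact libraries and 0 above (median -0.22, none called). Their median was -0.12 without castrated male 1 and -0.44 without intact male 2. Of 16 tested sebaceous genes 13 had negative fold changes, with 7 below and 1 above (median -0.29, none called). Krt79, a keratin of the upper follicle and the sebaceous duct that is in both lists, stood at 67.6 and 90.4 CPM in castrated and 174 and 153 CPM in intact males (-1.06 ± 0.16, limma adjusted p = 0.089). Plet1, a surface protein of the upper follicle, stood at 62.6 and 68.5 against 107 and 93.7 CPM, and Cidea, a lipid droplet protein, at 5.93 and 8.68 against 17.2 and 11 CPM. Gata6, a transcription factor of the sebaceous duct, stood at 0.456 and 0.457 against 1.28 and 1.29 CPM. The sebaceous median was -0.084 without intact male 1 and -0.54 without intact male 2, and the intact libraries differed by 0.33. Fewer follicle or gland cells in a sort and less RNA per cell cannot be told apart.

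Immune and signalling lists gave no call. Of 15 tested interferon-stimulated genes, out of 30 listed, 13 had negative fold changes (median -0.23, and -0.11 without castrated male 1). Below both intact libraries lay 8 and above both 0, against 17.6% and 17.7% of all tested genes. Bst2, which tethers viruses at the cell surface, stood at 0.456 and 0.228 against 1.5 and 1.76 CPM, and Irf9, a subunit of the interferon-activated factor, at 15.3 and 15.5 against 23.5 and 19.3 CPM. Of the cytokine list, Tslp, an epidermal alarmin, stood at 10.4 and 9.25 against 33.9 and 18.3 CPM and Il7, a lymphocyte growth factor, at 7.52 and 7.31 against 15.7 and 13.4 CPM, while Cxcl14 stood higher, at 31.1 and 24.5 against 14.2 and 17.7 CPM. The 18 tested circadian clock genes had a median of -0.17, which was -0.09 without intact male 1 and -0.25 without intact male 2. Igfbp2, a binding protein of insulin-like growth factors, stood at 22.2 and 26.3 against 8.54 and 13.0 CPM.

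**Figure D5:**
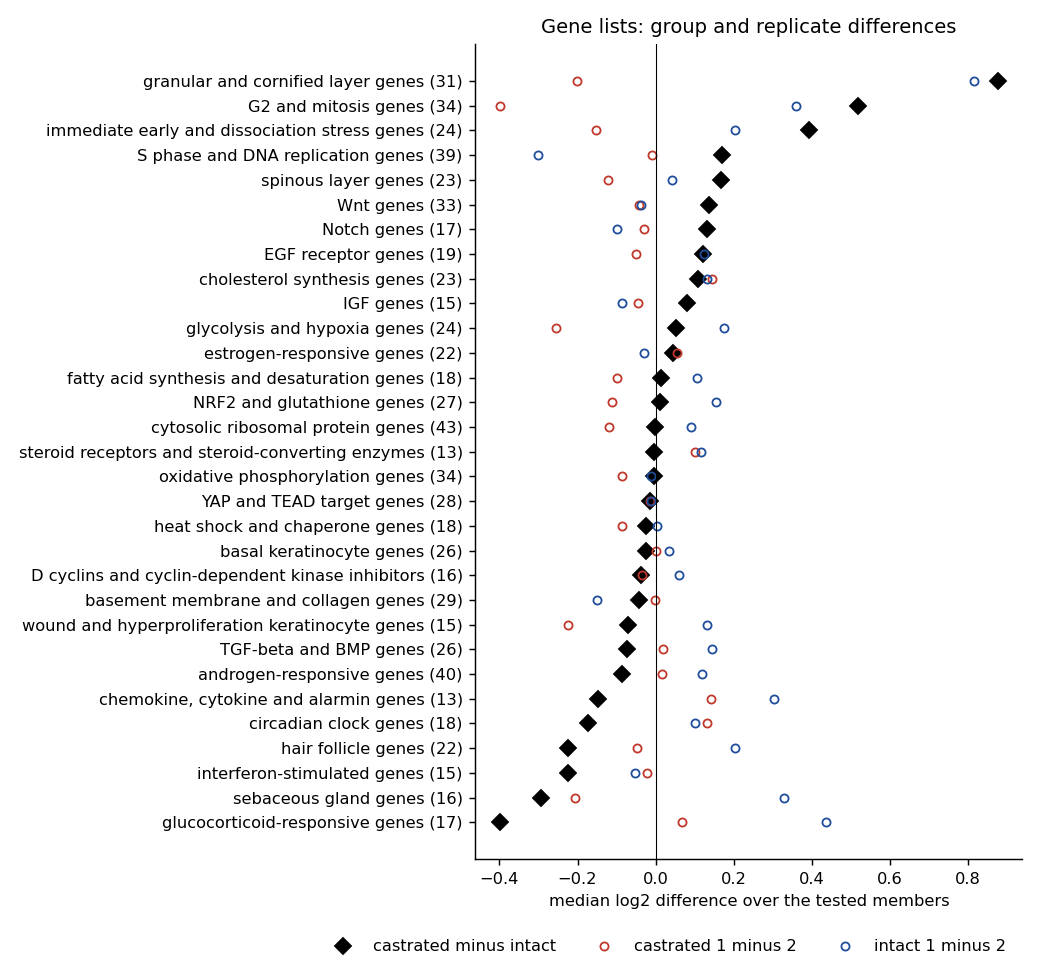
Median log2 difference over the tested members of each list with at least 10 of them (number in brackets): black diamonds are castrated minus intact, open circles the 2 replicate differences. For the cornified list (0.88) and the glucocorticoid list (-0.40) the intact replicates differ by 0.82 and 0.44, about as much as the groups.

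Markers of other cell types were given beside these lists as a check of the sort. The summed level of 16 fibroblast markers was 40.7 and 43.5 CPM in castrated and 108.8 and 77.3 CPM in intact males, with Dpt, Mfap5, Prrx1 and Twist2 at 0 in all 4 libraries, and all 4 tested fibroblast genes had negative fold changes. The summed T cell markers stood at 93.1 and 173 against 115 and 118 CPM. The summed melanocyte markers stood at 50.6 and 86.6 against 50.5 and 59.6 CPM, with castrated male 2 the highest as for mitosis genes. Langerhans and dendritic cell markers stood at 1356 and 1563 against 1195 and 1353 CPM. The part of these cells in the differences above was not tested.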

How the data were processed

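RNA of 2 castrated, 2 intact and 2 female libraries was used, grouped by the labels' titles. The submitters' processing notes name STAR 2.7.5a and HTSeq 0.11.1 besides FastQC and Picard, and the builds GRCm38 and mm10; which annotation and strand setting was used is not given in the sources used here. Deposited values are scores: columns sum to 19999024 to 19999732 and hold rounded whole multiples of 1 step (2.07 to 2.38). Dividing by the step gave reads (100.0% of values within rounding, against 41.8% to 48.1% of arbitrary whole numbers). These reads are an inference from the scores, and no count model was run on them. Tests used limma 3.58.1 in R 4.3.3 with an intensity trend on log2(CPM + 0.5), TMM scaling and a fit over all 6 libraries (residual degrees of freedom 3, prior 5.81), for genes with at least 10 reads in 2 of the 4 libraries. P-values are two-sided and adjusted by Benjamini-Hochberg over all genes tested. Fold changes on this scale understate those of low genes, and intervals and floors cover counting error only. The procedure was checked on simulated data.

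Named genes were the 12 largest changes per direction among those called, given a mean level from 5 CPM up, no group overlap and an established symbol, filled up with uncalled genes of the smallest p; up to 4 genes of smallest p per list; and fixed markers. Of the genes named so, Socs3, Cyr61 and Crct1 stand with the gene lists. Neighbours, near-identical copies, Rmi1, Pdcd10, Rpl7l1 and the prostaglandin gene Pla2g4a were named after their values were seen. Ptgs1 and Hpgd came from the gene lists and were grouped with Pla2g4a after their values were seen. Some genes that the rule names are not reported here. Members and lists were chosen with earlier results of these data known. Gene positions are from GENCODE M21, promoters from RefSeq, copies were matched with blastn 2.17.0. Alternatives covered the filter, pseudocount, scaling, trend, voom, replicate block and left-out libraries.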

Additional observations from a re-analysis of the deposited data

How the results depend on the processing

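In every setting tried, those of the 8 called genes that could be tested kept their direction. Against 8 calls (4 higher, 4 lower), the count of calls was 2 with no filter beyond 1 read (1 higher, 1 lower), 5 with at least 50 reads (2 higher, 3 lower) and 5 with the replicate block (2 higher, 3 lower). It was 6 with a filter over all 6 libraries and without TMM factors (2 higher, 4 lower each). It was 6 without the intensity trend, 7 with voom weights and 8 with median-of-ratios size factors. The 4 male libraries alone gave 9, a pseudocount of 0.1 gave 10 and a pseudocount of 2 gave 11 (3 higher, 8 lower). Without the intensity trend the calls of Cox7b, Rpsa and Rps3a2 were lost. With no filter beyond 1 read only Rps3a3 and Ptgs2 stayed called. Rps3a2 was not called with voom weights, nor Gm11222 at 50 reads or with the replicate block. Same-numbered castrated and intact libraries did not deviate together (correlation -0.014). The value was 0.197 for castrated males and females and -0.146 for intact males and females. These numbers, also used for the replicate block, are those of the titles. The library name of intact male 2 is Male3, and those of the castrated males are X1 and X2. Whether equal numbers mark a shared litter or day was not given, and 2 libraries per group cannot decide it. Leaving out a library gave 1 to 65 calls, 0 to 37 higher and 1 to 28 lower. Some signs turned for genes that were not called. With a library left out, the log2 fold change ran from -0.16 to 0.67 for Cd34, -0.029 to 0.19 for Ddx3y, -0.032 to 0.070 for Eif2s3y, -2.22 to 0.73 for Esr1, -0.11 to 0.20 for Kdm5d, -0.086 to 0.092 for Krt14, -0.24 to 0.23 for Krt15, -0.062 to 0.12 for Krt5, -0.063 to 0.26 for Srd5a1 and -0.21 to 0.049 for Uty. Without TMM factors it was 0.0089 for Krt15, and with median-of-ratios size factors -0.0055 for Krt14. The cause of these changes was not tested. edgeR and DESeq2 were not run, since the deposited unit is a score. List medians were recomputed in the same settings, an alternative chosen after seeing the data. With 8466450 to 9265207 reads, 1 read is worth 0.107 to 0.117 CPM, so differences of genes near 1 CPM rest on few reads.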
